A study of Homo sapiens with 6 samples.

Results

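Retinoid metabolism and response genes were followed in SUM159 cells, an established line of human breast carcinoma that lacks hormone receptors and ERBB2 amplification, after decitabine. Cells received 1 µM decitabine for 72 h in medium renewed daily (3 arrays), and untreated cells were kept in control medium for the same 72 h (3 arrays). The labels describe no solvent in the control medium, and they do not call the 3 replicates independent cultures. The p-values therefore cover the spread among these arrays, part or all of which may be technical. The question was which genes change expression after the drug, a nucleoside analogue that enters DNA and there captures the methyltransferases. The set was named by 10 gene symbols, and an array row counted as a member where the platform annotation gave it such a symbol alone. Rows were to be chosen by the highest mean value over the 6 arrays where a gene had several, but every member found had a single row. Of the 10 genes, 7 had a named row (RDH10, RDH11, DHRS3, RARRES1, RARRES2, CRABP2 and STRA6), out of 14884 named genes, while RDH5, CRABP1 and RBP4 were not analysed here. The symbols were proposed with earlier results of these arrays known, so the number of members that changed is a description.

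Retinol travels in blood on the carrier RBP4 and enters cells through the membrane receptor STRA6. Inside the cell RDH10 oxidises retinol to retinal, retinal dehydrogenases turn retinal into retinoic acid, and reductases such as DHRS3 and RDH11 return retinal to retinol. Retinoic acid is handed by CRABP2 to nuclear receptors (RAR, paired with RXR), and CYP26 enzymes break it down. DHRS3, STRA6, CRABP2, RARRES1 and RARRES2 are known to be induced by retinoic acid in some cells.

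Decitabine blocks the upkeep of CpG methylation, so the promoters of members are shown by their CpG content, although methylation itself was not measured. RefSeq (GRCh38.p14) entries were matched by symbol for 6 of the 7 measured genes (RDH11, DHRS3, RARRES1, RARRES2, CRABP2 and STRA6), with 12 listed starts among them. The 3 sequences below are the 250 bases before the first-listed start, with each CpG in capitals, and were picked to span the range from CpG-rich to CpG-poor.
DHRS3 (chr1:12618211-12618460, minus strand): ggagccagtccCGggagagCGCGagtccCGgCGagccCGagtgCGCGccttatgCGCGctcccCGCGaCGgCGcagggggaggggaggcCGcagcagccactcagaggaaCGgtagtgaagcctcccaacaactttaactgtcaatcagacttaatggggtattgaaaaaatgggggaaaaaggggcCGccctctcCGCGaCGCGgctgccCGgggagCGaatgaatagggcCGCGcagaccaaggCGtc
CRABP2 (chr1:156705785-156706034, minus strand): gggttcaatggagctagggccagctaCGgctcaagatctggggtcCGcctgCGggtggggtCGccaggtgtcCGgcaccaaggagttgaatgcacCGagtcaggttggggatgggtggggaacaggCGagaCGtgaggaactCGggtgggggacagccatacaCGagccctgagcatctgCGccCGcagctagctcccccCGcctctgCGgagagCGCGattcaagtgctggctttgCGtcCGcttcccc
STRA6 (chr15:74212260-74212509, minus strand): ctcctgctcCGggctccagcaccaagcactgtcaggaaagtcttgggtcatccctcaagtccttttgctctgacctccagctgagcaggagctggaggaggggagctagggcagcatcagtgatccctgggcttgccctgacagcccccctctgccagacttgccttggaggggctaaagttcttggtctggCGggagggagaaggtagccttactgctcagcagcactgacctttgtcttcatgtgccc
The DHRS3 stretch held 26 CpGs, the CRABP2 stretch 18 and the STRA6 stretch 2. Over the first-listed promoters of 10749 named genes the median was 18 CpGs, with quartiles of 7 and 26. RARRES1 had 23, RARRES2 18 and RDH11 8, so the 6 promoters ran from the CpG-poor to the CpG-rich end of that distribution. DHRS3 also had starts with 10 and 3 CpGs, and the 5 starts of STRA6 had 2 to 8.

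**Figure D1:**
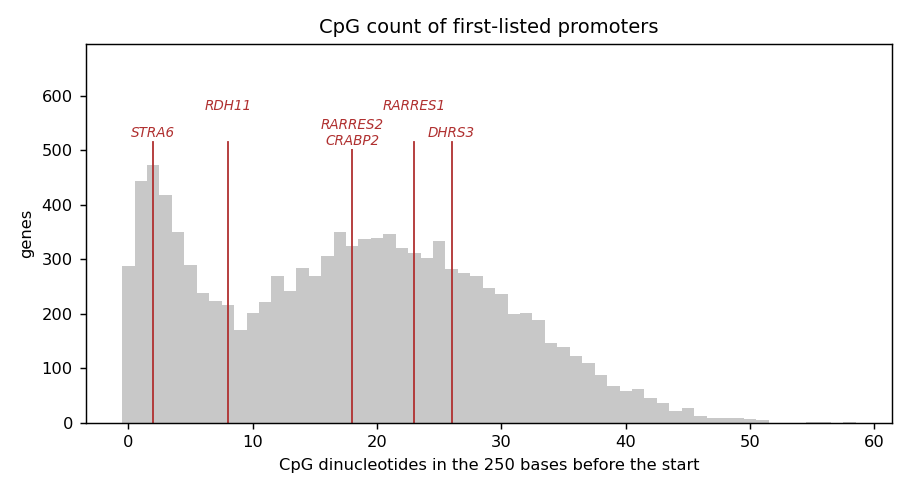
CpG dinucleotides in the 250 bases before the first-listed RefSeq start (x axis) against the number of named genes with that count (y axis, grey bars). Red lines mark the members with an entry: STRA6 at 2, RDH11 at 8, RARRES2 and CRABP2 at 18, RARRES1 at 23 and DHRS3 at 26.

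The same stretches were searched on both strands for 4 hexamers that RAR and RXR can bind: the hexamer AGGTCA, the hexamer AGTTCA, the hexamer GGGTCA and the hexamer GGTTCA. A hexamer was found in 3 of the 6 first-listed promoters (GGTTCA in CRABP2, GGGTCA in RARRES2, AGGTCA and GGGTCA in STRA6), against 30.4% of the first-listed promoters of named genes. Over all 12 listed starts, 6 had a hexamer. These included the other starts of DHRS3 (GGTTCA and AGGTCA) and a further start of STRA6 (AGGTCA). Any hexamer followed by any hexamer in the same orientation after 5 bases, 16 arrangements in all, was in none of the 12 stretches. It was in 0.037% of the first-listed promoters of named genes. These are matches of letters in a short window and are given as a description.

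Genes listed as present or low in the labelled line were set against the array medians over all features. VIM, CD44, EGFR, KRT8 and KRT18, listed as present, lay above the array median on all 6 arrays, with KRT8 at 3.41 to 4.45. The receptor genes ESR1 and PGR lay below it on all 6. A place above or below this median does not by itself identify the line. ERBB2 was not analysed here. The epidermal growth factor receptor gene EGFR itself fell (−1.15 on the log2 scale, limma adjusted p = 0.0195). Markers of tissues in which members are known to be abundant were averaged by list. The adipocyte, hepatocyte, pigment epithelium and endothelial means lay near the array medians in both groups, but single markers lay apart. Below the median on every array were 1 of 3 adipocyte, 2 of 4 hepatocyte and 2 of 5 pigment epithelium markers. The mean of the 3 measured adipocyte markers of 5 was 2.23 to 2.76 in decitabine arrays and 2.16 to 2.80 in untreated arrays, and that of 4 of 5 hepatocyte markers 2.45 to 2.86 with decitabine and 2.18 to 3.05 untreated. That of the 5 pigment epithelium markers was 2.04 to 2.69 with decitabine and 2.20 to 2.64 untreated. The measured endothelial markers, 2 of 3, averaged 2.19 to 2.77 in decitabine arrays and 2.09 to 3.09 in untreated arrays. CD14 was the single measured leukocyte marker of 4 and stood at 3.08 to 3.34 in decitabine arrays and 2.32 to 2.60 in untreated arrays (adjusted p = 0.115, or 0.0247 with the replicate block), and its part in the results was not tested. Both arrays of replicate 1 had higher medians over all features, 2.98 with decitabine and 3.03 untreated, than the other arrays (2.37 to 2.40 with decitabine, 2.29 to 2.42 untreated).

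RDH10 was the retinoid gene that rose. RDH10 (Entrez Gene 157506) encodes the dehydrogenase of the step from retinol to retinal, which mouse embryos need to make retinoic acid. Its deposited values on the log2 scale were 5.56, 5.68 and 4.84 in decitabine replicates 1, 2 and 3, against 3.21, 2.96 and 2.83 in untreated replicates 1, 2 and 3. Every decitabine array was above every untreated array, as for 11.3% of all genes, and replicate 3 was the lowest in both groups. The mean was 5.36 ± 0.45 after decitabine and 3.0 ± 0.19 in untreated cells (SD, n = 3 each). The difference was 2.36 (SE 0.27, 95% interval 1.73 to 2.99), a 5.13-fold rise in the deposited values (interval 3.33 to 7.92), and the limma adjusted p over all genes was 0.00461. The untreated values were close to the untreated array medians of 2.29 to 3.03. Without a background measure, the fold describes the deposited values and is not a calibrated change in RNA. The same-numbered pairs differed by 2.35, 2.72 and 2.01. RDH10 ranked 62nd of 14884 genes by upward difference. In bulk RNA, a change in the share of cells that express a gene and a change in RNA per cell cannot be told apart.

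A rise by the same test was seen in 2.01% of all named genes and a fall in 1.02%, together 3.03%, and RDH10 was the single member of 7 that passed. With the replicate number as a block, which sets each decitabine array against its same-numbered untreated array, 7.79% of genes rose and 5.37% fell, 13.2% in all. RDH10 was again the single member that passed, with an adjusted p of 0.00143. The median difference of the 7 members was −0.22 on the log2 scale, beside −0.02 over all genes. It was 0.13, −0.31 and 0.00 in the pairs of replicates 1, 2 and 3.

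**Figure D2:**
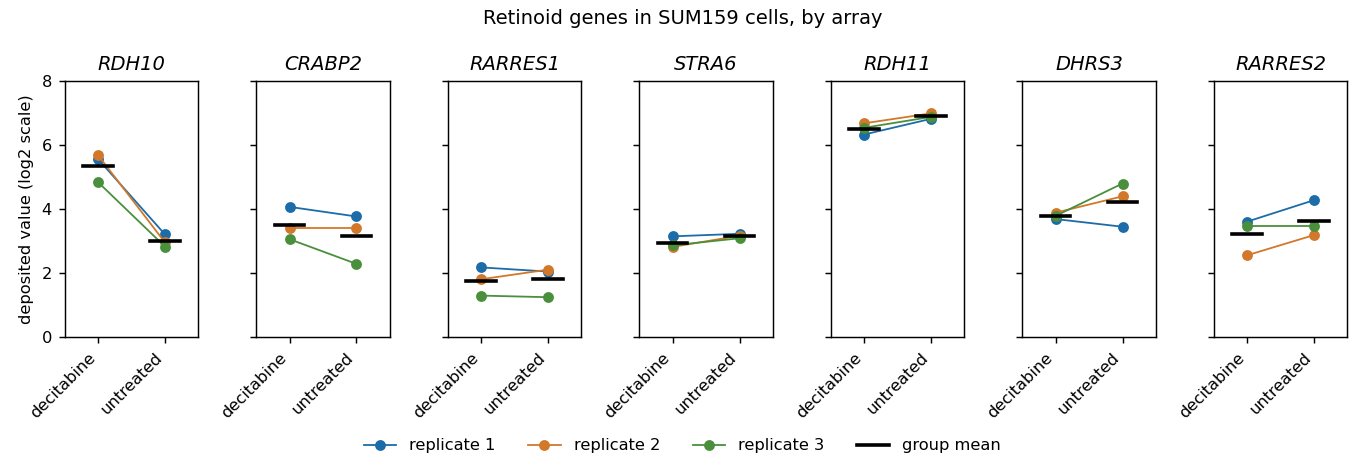
Deposited values on the log2 scale (y axis) of the 7 measured retinoid genes, with decitabine at the left and untreated at the right of each panel. Coloured points are arrays, lines join arrays of the same replicate number and black bars are group means. RDH10 lies at 4.84 to 5.68 with decitabine and at 2.83 to 3.21 untreated, RDH11 is slightly lower with decitabine, and the groups overlap for the other 5 genes.

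The enzymes that work in the opposite direction, from retinal to retinol, did not pass the test. RDH11 (51109), a retinal reductase of the endoplasmic reticulum, had 6.33, 6.68 and 6.54 in decitabine replicates 1 to 3, against 6.82, 6.99 and 6.88 in untreated replicates 1 to 3. The decitabine values all lay below the untreated ones, a separation in this direction seen in 8.74% of all genes and in either direction in 20.1%. The difference was −0.38 (SE 0.20, 95% interval −0.84 to 0.08, adjusted p = 0.491), with pair differences of −0.49, −0.31 and −0.34. The block narrowed the interval to −0.68 to −0.08, and the adjusted p was 0.102.

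DHRS3 (9249), the reductase that lowers retinoic acid formation and is itself induced by retinoic acid, had 3.69, 3.89 and 3.79 in decitabine replicates 1 to 3. Untreated replicates 1 to 3 had 3.45, 4.40 and 4.80. The decitabine arrays lay close together while the untreated arrays were spread (SD 0.10 with decitabine and 0.69 untreated), so the groups overlapped. The lowest untreated array was replicate 1, an array with a higher median over all features. DHRS3 differed by 0.24, −0.51 and −1.01 in the 3 pairs, on average by −0.43 (SE 0.34, 95% interval −1.21 to 0.35, adjusted p = 0.781). Its difference was −0.81 without untreated replicate 1 (adjusted p = 0.134) and −0.14 without untreated replicate 3 (adjusted p = 0.923). With all arrays, the block gave an interval of −1.02 to 0.16 and an adjusted p of 0.315. Of the 3 enzymes, RDH10 therefore had pair differences that were all upward, RDH11 all downward and DHRS3 mixed. Pairs in a single direction were found for 44.8% of all genes.

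**Figure D3:**
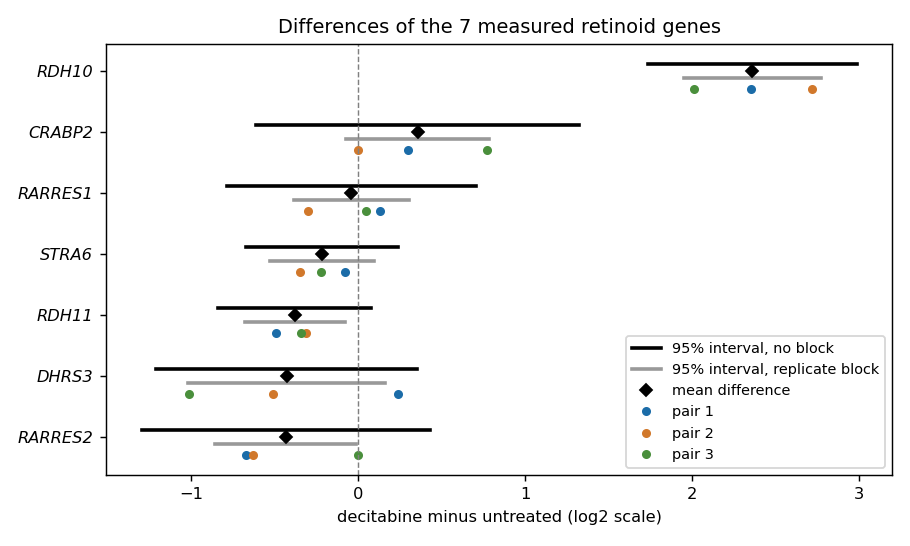
Decitabine minus untreated on the log2 scale (x axis) for the 7 measured retinoid genes. Diamonds are mean differences, black and grey lines are 95% intervals without and with the replicate block, and coloured points are the same-numbered pairs. The RDH10 interval runs from 1.73 to 2.99, and the intervals without a block of the other 6 genes include 0. With the block, the intervals of RDH11 (−0.68 to −0.08) and RARRES2 (−0.86 to −0.01) exclude 0. Their limma adjusted p with the block was 0.102 and 0.167.

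For uptake and transport within the cell, neither measured member passed. STRA6 (64220), the receptor that takes retinol from RBP4, had 3.15, 2.82 and 2.87 in decitabine replicates 1 to 3 and 3.23, 3.17 and 3.09 in untreated replicates 1 to 3. The groups overlapped by a narrow margin, since decitabine replicate 1 exceeded untreated replicate 3. All pairs were lower after decitabine (−0.08, −0.35 and −0.22), with a mean difference of −0.22 (SE 0.20, 95% interval −0.67 to 0.24, adjusted p = 0.849). The block interval was −0.53 to 0.09 (adjusted p = 0.328).

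CRABP2 (1382), the carrier that brings retinoic acid to its receptors, had 4.07, 3.41 and 3.06 in decitabine replicates 1 to 3, against 3.77, 3.41 and 2.29 in untreated replicates 1 to 3. In both groups replicate 1 was the highest and replicate 3 the lowest, the same order in each. Both arrays of replicate 2 had the same value, as for 7.94% of all features. CRABP2 differed by 0.30, 0.00 and 0.77 in the pairs and by 0.36 on average (SE 0.42, 95% interval −0.61 to 1.32, adjusted p = 0.931). The spread over replicates within a group, with SDs of 0.51 after decitabine and 0.77 untreated, was larger than the difference. The block, which compares within pairs, lowered the SE to 0.18. Its interval was −0.07 to 0.79, with an adjusted p of 0.252. The difference was −0.077 without untreated replicate 3.

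The genes named as retinoic acid receptor responders did not rise either. RARRES1 (5918), a membrane protein related to the carboxypeptidase inhibitor latexin, had 2.18, 1.81 and 1.30 in decitabine replicates 1 to 3 and 2.05, 2.11 and 1.25 in untreated replicates 1 to 3. It was the single member below the array median on all 6 arrays, and its groups covered nearly the same range. Other members were also dim: CRABP2 was above the median on 5 of 6 arrays. On the replicate 1 arrays STRA6 (3.15 with decitabine, 3.23 untreated) was little above the medians of 2.98 and 3.03. The RARRES1 difference was −0.04 (SE 0.32, 95% interval −0.78 to 0.70, adjusted p = 1.00), and its pairs differed in sign (0.13, −0.30 and 0.05). The block interval of RARRES1 was −0.38 to 0.30 (adjusted p = 0.891). Its promoter stretch, with 23 CpGs, is richer in them than that of RARRES2 with 18. A relation of CpG content to the differences was not tested.

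RARRES2 (5919) encodes chemerin, a secreted protein that attracts immune cells and acts on fat tissue. It had 3.61, 2.56 and 3.46 in decitabine replicates 1 to 3, against 4.28, 3.19 and 3.46 in untreated replicates 1 to 3. The groups overlapped, and the pairs differed by −0.67, −0.63 and 0.00. Both arrays of replicate 3 had the same value, as for 8.28% of all features. The mean difference of −0.43 (SE 0.37, 95% interval −1.30 to 0.43) had an adjusted p of 0.825. It was −0.11 without decitabine replicate 2, −0.12 without untreated replicate 1 and −0.66 without untreated replicate 2. The block gave an interval of −0.86 to −0.01 and an adjusted p of 0.167, so RARRES2 missed the threshold there as well. The 3 measured chemerin receptor genes also did not pass with or without the block, at −0.62 for CMKLR2, −0.04 for CMKLR1 and 0.29 for CCRL2.

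None of the other measured genes of the pathway passed the test upward. Of 73 further retinoid genes listed by role, 31 had a named row. Of these 0 passed the limma test in either direction, beside 3.03% of all genes. An unadjusted p under 0.05 was found for 3 of the 31 and for 2072 of all 14884 genes. With the block 0 rose and 3 fell, 2 among the receptors and coregulators and 1 among the oxidoreductases. Over all genes 7.79% rose and 5.37% fell with the block. The median difference of the 31 was −0.04 and their range −0.84 to 0.55. The genes of RAR and RXR, of the retinal dehydrogenases (ALDH1A) and of CYP26 were not analysed here, so the making and breakdown of retinoic acid and its own receptors are not covered.

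PPARD, a nuclear receptor that can also take up retinoic acid from the carrier FABP5, had 6.33, 6.30 and 6.30 in decitabine replicates 1 to 3, against 7.04, 7.04 and 7.38 in untreated replicates 1 to 3. The groups did not overlap. It differed by −0.84 (SE 0.20), with an adjusted p of 0.0687, or 0.0155 with the block. The difference of FABP5 was 0.55 (SE 0.50), with an adjusted p of 0.848, or 0.147 under the block, and its pairs differed by 0.00, 0.65 and 1.01.

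NRIP1, a corepressor that binds nuclear receptors when they carry ligand, had 6.68, 6.95 and 6.46 in decitabine replicates 1 to 3 and 7.17, 7.52 and 7.18 in untreated replicates 1 to 3. The difference was −0.59 (SE 0.22), with an adjusted p of 0.264, or 0.0322 under the block. DHRS7, an endoplasmic reticulum enzyme of the same family as DHRS3, had 4.23, 4.07 and 3.65 in decitabine replicates 1 to 3 and 4.87, 4.65 and 4.55 in untreated replicates 1 to 3. Its difference of −0.71 (SE 0.23) had an adjusted p of 0.184, or 0.0227 under the block. The decitabine arrays of both genes lay below all untreated arrays, as for PPARD and for 8.74% of all genes. In the other direction, 1 of the 31 genes was separated, as were 11.3% of all genes. This was the coregulator gene NCOA1, at 6.91 to 7.22 with decitabine and 6.66 to 6.80 untreated. Its difference was 0.39 (adjusted p = 0.465, or 0.140 with the block).

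By role, 6 receptors and coregulators had a median difference of −0.10 and 6 oxidoreductases −0.22, beside −0.02 for all genes. The 3 other carriers had a median of −0.09 and the 5 genes of uptake, storage and cleavage 0.14. The 8 further genes known to respond to retinoic acid had a median of 0.00, a range of −0.36 to 0.24, and no call with or without the block. Of these, STRA8 lay below the array median on every array (means 1.49 with decitabine and 1.53 untreated). PLAAT4 (2.17 and 2.14) and HOXB1 (2.07 and 2.43) lay near or below it. CDX1, MEIS1, MEIS2, ICAM1 and RAI14 lay above it on every array. LRAT and RPE65, of the uptake, storage and cleavage genes, were also below it throughout. Without a background measure, the lack of a call in such dim genes does not show that their RNA was unchanged.

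**Figure D4:**
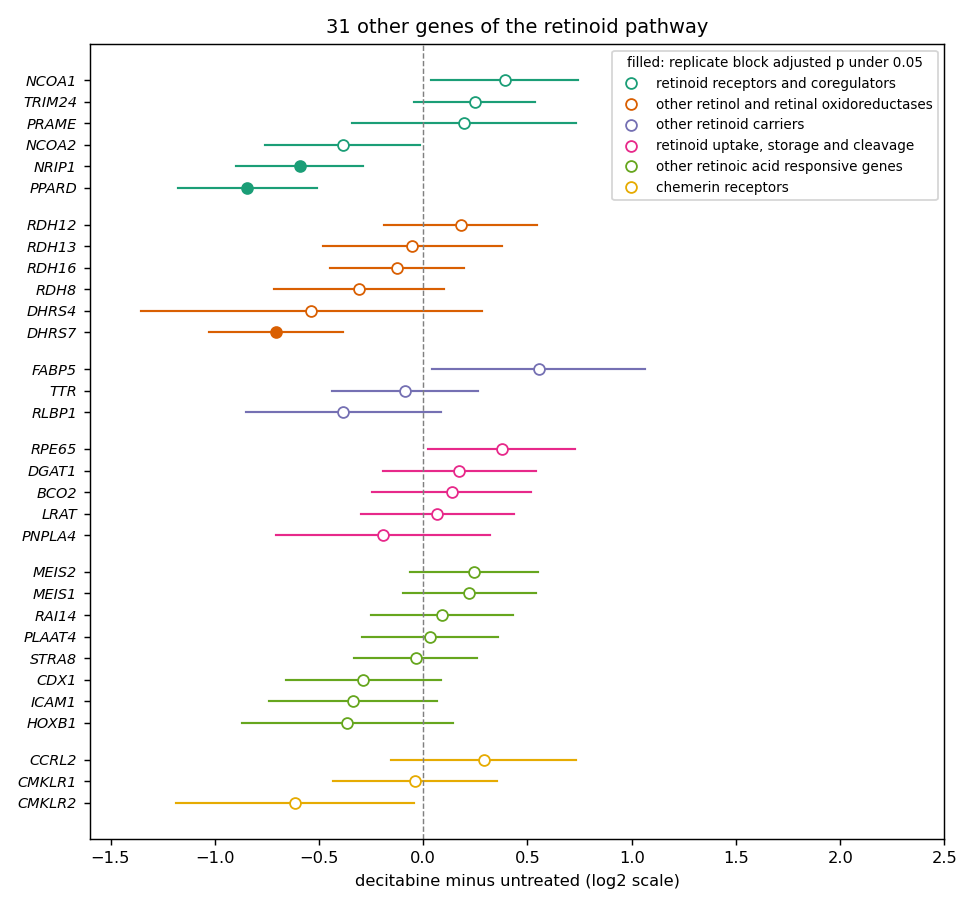
Decitabine minus untreated on the log2 scale (x axis) for the 31 other measured genes of the pathway, coloured by role. Points are mean differences and lines 95% intervals with the replicate block, and filled points (PPARD, NRIP1, DHRS7) had an adjusted p under 0.05 with the block. No point lies above 0.55.

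Over the 6 arrays, the values of RDH10 ran most closely with AMDHD1 (Pearson r = 0.9987), MEA1 (0.9982) and DCLRE1B (0.9971), which had differences of 0.88, 1.15 and 0.81. RARRES2 ran most closely with FSTL4 (0.9968), BEGAIN (0.9928) and NKX2-8 (0.9911), and DHRS3 with ZBTB16 (0.9958), NPIPB3 (0.9941) and RNF14 (0.9890). With 6 arrays in 2 groups and 14884 genes searched, such values are a description, and the arrays share the treatment and the replicate numbers.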

How the data were processed

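Per the submitters' processing notes, the authors used the Transcriptome Analysis Console to make the deposited values, which were read as log2 expression values from their range. Its version, the normalization, the genome build and the log base are not stated in these sources, so folds rest on that reading, and no measure of background was used. Of 48226 features 16098 carried a single symbol, updated by Entrez Gene ID through the RefSeq table of GRCh38.p14 (all matched), and the brightest feature stood for each of 14884 genes. Limma 3.58.1 in R 4.3.3 (lmFit, eBayes, two-sided, no covariate, all 6 arrays) compared decitabine with untreated, with Benjamini-Hochberg adjustment over all genes and a threshold of 0.05. "Rose" and "fell" mean past it. The fit was tested on simulated data with independent noise of a single SD and no pair effect. That test therefore does not cover the pairing or the unequal spread of genes in these arrays. Deviations from group means correlated at 0.682, 0.595 and 0.558 between same-numbered arrays and at −0.483 to −0.006 otherwise. Each group was centred on its own mean, which by itself pushes the latter negative when the former are positive. On these values the numbers in the titles were taken as pairs. Identical values were found for 6.44 to 8.28% of features in same-numbered arrays and for 0.42 to 0.83% otherwise. The source of these ties was not tested, and the block intervals include them. The block is an alternative, as are normalization, dim-gene, feature, variance-prior and left-out-array settings. The text names every measured member, and of the other listed genes those past the threshold with or without the block. The genes most like the 3 members of largest difference are named too, and other genes were named after their values were seen. Members and lists were chosen with earlier results of these data known. The number of arrays limits the precision.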

Additional observations from a re-analysis of the deposited data

How the results depend on the processing

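RDH10 kept its direction in all 17 alternatives (2.18 to 2.62) and its call in 14. The exceptions were the added fits with the replicate block and each pair left out, with adjusted p of 0.109, 0.0961 and 0.0651 without pairs 1, 2 and 3. Limma called 0 of all genes and 0 members there, with 2449 to 3514 genes at an unadjusted p under 0.05 and a single residual degree of freedom per gene. The other 6 members stayed short of the threshold in every alternative run, though RARRES1, RARRES2, CRABP2 and STRA6 were not in the fit without the dimmer 50% of genes. RARRES1 was at 0.19 without decitabine replicate 3, 0.08 and 0.11 without untreated replicates 1 and 2, and 0.09 with the block and without pair 2. Over left-out arrays RARRES1 ranged from −0.32 to 0.19, and CRABP2 from −0.077 (without untreated replicate 3) to 0.66. Genes that rose and fell over the whole table numbered 299 and 152, and 1159 and 800 with the replicate block, 551 and 387 with quantile normalization, 557 and 432 with the dimmer 50% left out, 682 and 453 with an intensity trend and robust prior, and 1225 and 1046 with the block and quantile normalization, an added setting. Median centring left 91 falls. Leaving out an array gave 95 to 321 rises and 33 to 156 falls, or 0 and 0 with the block and a pair left out. The other pathway genes had 3 falls with the block, also with quantile normalization added (PPARD, NRIP1, DHRS7), 2 with quantile normalization alone (PPARD, DHRS7), and 1 (PPARD) with the dimmer genes left out or with the trend. The causes were not tested.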

Other observations

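Of the 6 named genes nearest to RDH10 on its chromosome, 3 on each side and chosen after the values of RDH10 were seen, none passed the test. TMEM70, a mitochondrial membrane protein needed to assemble ATP synthase, had 5.72, 5.26 and 5.50 in decitabine replicates 1 to 3, against 4.84, 4.47 and 4.88 in untreated replicates 1 to 3. Its difference was 0.76 (SE 0.22, limma adjusted p = 0.137, and 0.0164 with the replicate block). The other 5 neighbours, MSC-AS1, TERF1, C8orf89, STAU2-AS1 and LY96, differed by −0.61 to 0.20 and did not pass with or without the block.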
